A study of Danio rerio with 30 samples.

Results

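The 10 genes described here mark cartilage cells but encode no collagen. They are the transcription factor genes sox9a and sox9b, the proteoglycan gene acana with its partner hapln1a, the matrilin genes matn1 and matn4, the Gla-protein genes ucmaa and ucmab, the small proteoglycan gene epyc, and cnmd, which encodes chondromodulin. They were taken by symbol from the array annotation, and all 10 listed genes were found, each read by 1 probe set, among 19260 genes tested. Their values did not decide the choice, although earlier results of these data were known when it was made.

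Cartilage is laid down by chondrocytes, which secrete a matrix of collagen fibrils filled with sulphated proteoglycans bound to hyaluronan. Sox9 proteins switch on the genes of that matrix, aggrecan and link protein form its water-binding aggregates, and matrilins bridge aggregates and fibrils. In the larval fish head the jaw and gill-arch skeleton is first made of cartilage, and bone is added later.

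RNA was measured on 30 Affymetrix ZebGene 1.0 ST arrays, each holding a pool of 5 AB strain zebrafish from which all tissue in front of the gills had been taken. In knockdown fish (KD) splicing of grb10a was blocked with a morpholino; its protein is an adaptor of the receptors for insulin and related growth factors. Control fish (SC) carried a standard morpholino directed at human beta-globin, and both were injected as early embryos together with phenol red and mRNA of the blue fluorescent protein nCerulean, then kept only if evenly fluorescent. Groups were 3 KD and 3 SC pools at each of 5, 10, 15, 20 and 30 days after fertilisation (dpf). The series design and the treatment notes do not name the same splice site for the morpholino, and a morpholino acts on transcripts of the injected embryo, so how much grb10a protein remained at each age is not known from these arrays. Differences are KD minus SC, or later minus earlier age, on the log2 scale of the deposited signal. "Rose", "fell" and "changed" stand only for an adjusted p under 0.05 in limma, with p adjusted over all 19260 genes.

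Array medians lay between 5.51 and 5.63 (log2), and arrays of the same group correlated at 0.952 to 0.983 over all probe sets. The grb10a probe set read 9.28, 9.10 and 8.95 in KD and 8.05, 8.21 and 8.03 in SC at 5 dpf, a rise of 1.01 (SE 0.12, adjusted p = 3.59e-07). It passed the test in KD against SC at no other age, so its signal does not check the labels of a splice-blocking knockdown. Liver, pancreas and intestine genes also set the youngest controls apart. Their 42 genes averaged 5.28 to 5.93 in KD arrays at 5 dpf and 9.33 to 9.40 in SC arrays at 5 dpf, and at all later ages every array lay between 5.08 and 6.97. Of these 42 genes, 40 fell in KD at 5 dpf, and 40 fell in controls between 5 and 10 dpf, so differences of tissue content stand beside every value below that uses the SC arrays at 5 dpf. The arrays hold whole heads, and fewer cartilage cells or less RNA in each of them cannot be told apart. Replicates are separate pools of fish, so p-values rest on the spread between pools. For each gene that spread is 1 estimate shared by all 10 groups and moderated over all genes. It is not the spread of the compared pools alone, and group SDs differed, for matn1 from 0.07 to 0.90.

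**Figure D1:**
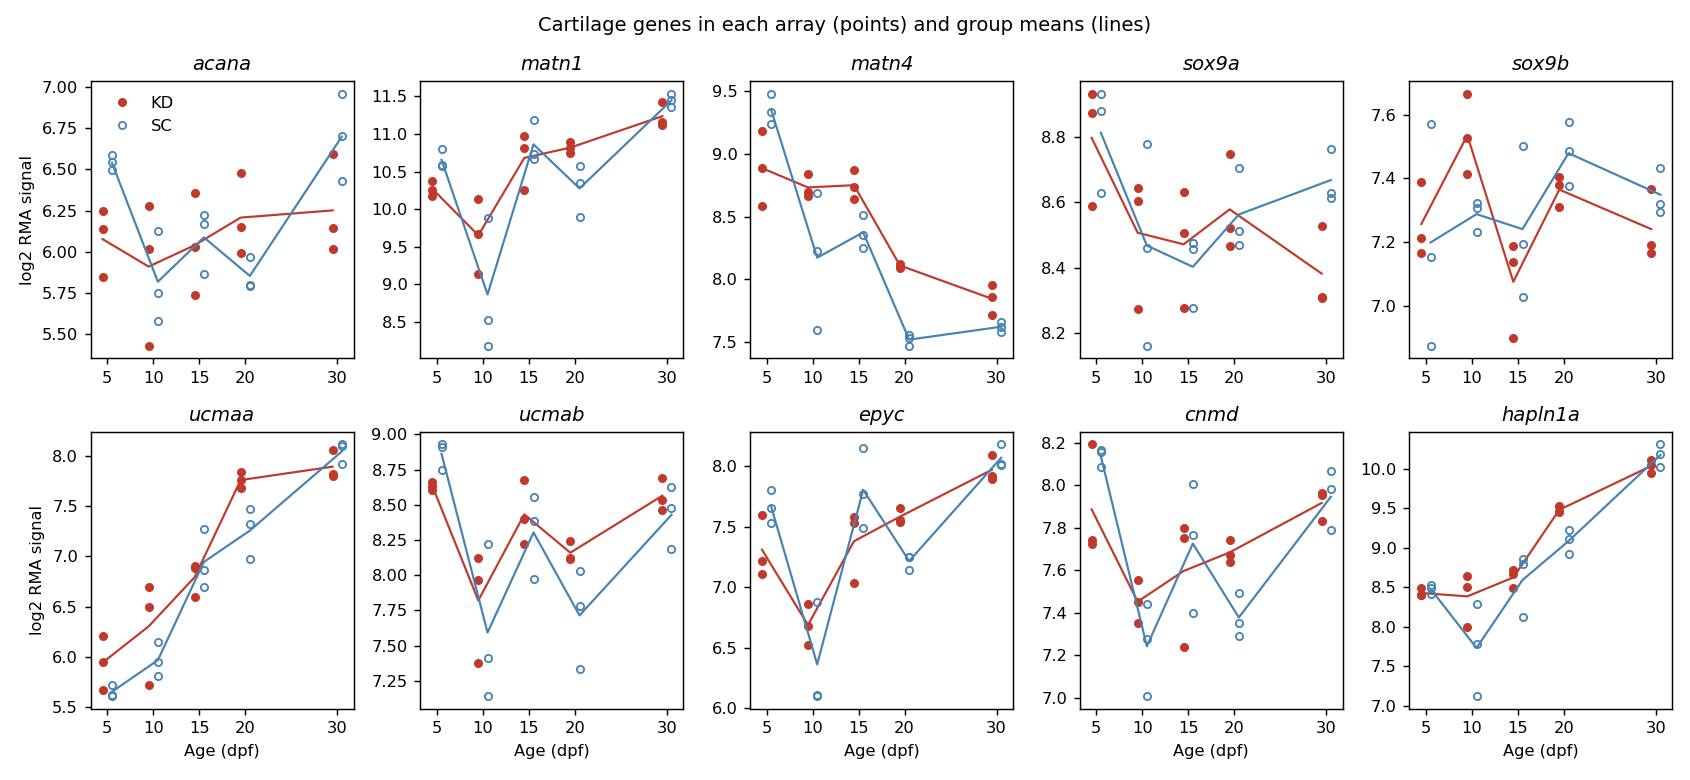
Deposited log2 signal of the 10 cartilage genes (vertical axes, each with its own range) against age in dpf. Filled points are KD arrays, open points SC arrays (3 each per age, drawn slightly apart), and lines join group means; ucmaa and hapln1a climb with age, matn4 declines, and the lowest SC points of matn1, epyc and hapln1a are at 10 dpf.

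The sox9 genes, regulators of the chondrocyte state, moved least. Over the 10 group means sox9a spanned 0.43 and sox9b 0.46 on the log2 scale, against 0.88 to 2.59 for the other 8 genes. In sox9a the highest mean was 8.81 ± 0.16 (SD, n = 3) in SC at 5 dpf and the lowest 8.38 ± 0.13 in KD at 30 dpf. When the 10 groups were ordered by level, every neighbouring pair overlapped in both genes, as it did in acana. In ucmaa, ucmab, epyc and cnmd 8 of 9 pairs overlapped, so this count hardly sets the sox9 genes apart. The groups were ordered by these same values, with no share over all genes counted. No step between neighbouring ages passed the test for sox9a in either treatment, and for sox9b there was a single call: it fell in KD between 10 and 15 dpf. The sox9b arrays read 7.14, 7.19 and 6.90 in KD at 15 dpf, against 7.53, 7.67 and 7.41 in KD at 10 dpf. All 3 older arrays lay below the 3 younger ones, with a difference of -0.46 (SE 0.14, adjusted p = 0.0382). This call was lost, with adjusted p between 0.0559 and 0.177, when any of 5 of the 6 arrays was left out, all but KD replicate 3 at 10 dpf. Sox9 genes are also active in neural glia, and the level in a whole head is a sum over such cells and cartilage.

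Link protein, encoded by hapln1a, fastens aggrecan to hyaluronan, and its gene climbed with age. In KD the group means were 8.43, 8.38, 8.62, 9.48 and 10.04 at 5, 10, 15, 20 and 30 dpf. In SC they were 8.48, 7.73, 8.59, 9.08 and 10.18 at the same ages. Both treatments therefore ended highest, with a dip at 10 dpf in controls. KD heads at 30 dpf exceeded KD heads at 5 dpf by 1.61 (SE 0.20, adjusted p = 3.26e-07), and SC heads at 30 dpf exceeded SC heads at 5 dpf by 1.70 (SE 0.20, adjusted p = 1.34e-07), about 3.05-fold and 3.24-fold. Aggrecan is the core protein whose sulphated chains hold water in cartilage, and its gene acana gave the dimmest probe set of the 10. The acana signal averaged 6.15 over all arrays, just above 6.06, the limit of the lowest 33.3% of genes. Group means under that limit, as in KD at 10 and 15 dpf and in SC at 10 and 20 dpf, lie where background was not measured, and differences from them may be too small. Its arrays at 30 dpf read 6.14, 6.59 and 6.02 in KD and 6.96, 6.43 and 6.71 in SC. The treatments overlapped there, and at no age did acana pass the test between KD and SC.

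The matrilin genes ended on opposite sides of where they began, although both fell in controls between 5 and 10 dpf. Matrilin 1, a protein long known as cartilage matrix protein, had its lowest group mean in SC at 10 dpf (8.86 ± 0.90, SD, n = 3) and its highest in SC at 30 dpf (11.45 ± 0.09). The matn1 group means thus spanned 2.59, the widest range among the 10 genes. Matrilin 4, which in the mouse is made in many connective tissues and in the nervous system as well as in cartilage, declined instead. Its highest group mean was 9.35 ± 0.12 in SC at 5 dpf and its lowest 7.52 ± 0.04 in SC at 20 dpf. From the youngest to the oldest heads matn4 fell by 1.04 in KD (SE 0.17, adjusted p = 1.3e-05) and fell by 1.73 in SC (SE 0.17, adjusted p = 4.7e-09). In SC the youngest heads are those with the high liver, pancreas and intestine signals, while in KD they are not. When the 10 groups were ordered by level, 5 of 9 neighbouring pairs of matn4 groups did not overlap, more than for any other of the 10 genes. The order was taken from the same values, and the share over all genes was not counted.

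The paired Gla-protein genes also parted with age. Ucma proteins carry vitamin K-dependent gamma-carboxyglutamate residues and are secreted by young chondrocytes. The ucmaa group means in KD were 5.95, 6.30, 6.79, 7.76 and 7.89 at 5, 10, 15, 20 and 30 dpf. In SC they were 5.65, 5.97, 6.94, 7.26 and 8.04. No mean of either series was below the one before it, and the low starting levels lie at or under the limit of dim genes, so the rise may be larger than measured. The oldest heads exceeded the youngest by 1.94 in KD (SE 0.19, adjusted p = 4.53e-09) and by 2.39 in SC (SE 0.19, adjusted p = 9.44e-11). The sister gene ucmab was highest at 5 dpf, with means of 8.63 ± 0.03 in KD and 8.86 ± 0.10 in SC. Its difference between 30 and 5 dpf was -0.07 in KD (adjusted p = 0.812) and -0.43 in SC (adjusted p = 0.0959), neither past the threshold. The SC difference passed after a second quantile normalization (-0.52, adjusted p = 0.0455). It also passed with array quality weights (adjusted p = 0.0317) or only the compared arrays (adjusted p = 0.0204). The probe sets of ucmaa and ucmab are different, so their levels are not set against each other.

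Epiphycan, a small leucine-rich proteoglycan of growing cartilage, and chondromodulin, a membrane protein whose released part keeps vessels out of cartilage, both had their lowest means at 10 dpf. For epyc these were 6.69 ± 0.17 in KD and 6.36 ± 0.45 in SC. For cnmd they were 7.45 ± 0.10 in KD and 7.24 ± 0.22 in SC. By 30 dpf epyc stood at 7.97 ± 0.11 in KD and 8.07 ± 0.10 in SC, which was 0.66 above 5 dpf in KD (SE 0.18, adjusted p = 0.00364) and 0.40 above it in SC (SE 0.18, adjusted p = 0.0645). The SC difference of epyc passed with an intensity trend and robust spread, median centring, array quality weights or only the compared arrays (adjusted p 0.0144 to 0.0487). The cnmd gene ended close to where it began, with differences between 30 and 5 dpf of 0.03 in KD and -0.19 in SC, neither past the threshold. Over the whole interval, 4 of the 10 genes rose and 2 fell in KD (matn1, ucmaa, epyc and hapln1a against matn4 and sox9a). In SC 3 rose and 1 fell (matn1, ucmaa and hapln1a against matn4). Of all genes tested, 30.6% rose and 20% fell in KD and 34.1% rose and 16.8% fell in SC, so age differences were common throughout. The sox9a call in KD (-0.41, adjusted p = 0.0177) was lost without KD replicate 2 or 3 at 5 dpf or KD replicate 1 or 3 at 30 dpf (adjusted p 0.06 to 0.0765), and the matn1 call in SC (0.79, adjusted p = 0.0216) without SC replicate 1 or 3 at 5 dpf or SC replicate 3 at 30 dpf (adjusted p 0.0566 to 0.0611). With the visceral mean as a covariate 0 of the 10 genes passed in SC, where calls over all genes dropped from 9820 to 325. In that fit ucmaa was 1.65 (adjusted p = 0.282) and matn4 -1.65 (adjusted p = 0.236). The visceral signal nearly separates the SC arrays at 5 dpf by itself, so these lost calls say nothing about the genes. These end-to-end contrasts were added after the data had been seen.

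Control heads did not follow a steady course between these ends. At 10 dpf, compared with 5 dpf, 7 of the 10 genes were lower: acana, matn1, matn4, ucmab, epyc, cnmd and hapln1a. The matn1 arrays read 9.89, 8.18 and 8.52 in SC at 10 dpf, against 10.59, 10.80 and 10.58 in SC at 5 dpf. All 3 older arrays were lower, but they were spread over more than 1.5 log2 units, with replicate 1 closest to the younger fish. The gene fell by 1.80 (SE 0.28, adjusted p = 2.42e-05), or 3.47-fold. The epyc arrays read 6.88, 6.11 and 6.10 in SC at 10 dpf and 7.53, 7.81 and 7.66 in SC at 5 dpf, and epyc fell 2.47-fold (adjusted p = 4.01e-06). The other 5 fell by 0.72 to 1.27, while sox9a (-0.34, adjusted p = 0.0725), sox9b (0.09) and ucmaa (0.31) did not pass. The hapln1a fall was lost without SC replicate 2 at 10 dpf (-0.44, adjusted p = 0.085), and sox9a passed without SC replicate 1 at 5 dpf (-0.44, adjusted p = 0.0457) or at 10 dpf (-0.50, adjusted p = 0.0125). Across all genes 13.8% rose and 14.7% fell at this step. This step spans the drop of the liver, pancreas and intestine genes: with their mean signal as a covariate, 0 of the 10 genes and 1 of 19260 passed, since that signal nearly separates the groups by itself, and the fitted matn1 difference was then -2.21 (adjusted p = 0.727).

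In knockdown heads the visceral signal at the same step was nearly level: the mean of those 42 genes was 5.25 ± 0.15 in KD at 10 dpf and 5.56 ± 0.33 in KD at 5 dpf. Of the 10 genes, ucmab fell by 0.81 (SE 0.22, adjusted p = 0.0189) and epyc fell by 0.62 (SE 0.18, adjusted p = 0.0323), beside 5.35% of all genes that rose and 2.91% that fell. Whether the step differed between treatments is given by the change of the KD minus SC difference, below. It passed for matn4 alone of the 10, but all 10 changes were positive and that of matn1 was larger (1.17, adjusted p = 0.0614). The ucmab arrays read 8.12, 7.96 and 7.38 in KD at 10 dpf, against 8.66, 8.63 and 8.61 in KD at 5 dpf. No older array reached the younger ones, although replicate 3 lay well below the other two. The ucmab call was lost without KD replicate 1 at 5 dpf (adjusted p = 0.0624) or KD replicate 3 at 10 dpf (-0.59, adjusted p = 0.113), and the epyc call without KD replicate 1 at 5 dpf or KD replicate 1 or 3 at 10 dpf (adjusted p 0.0678 to 0.185). Without KD replicate 3 at 10 dpf, ucmaa passed as well (0.65, adjusted p = 0.017).

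At 15 dpf cartilage genes stood higher again in control heads. Compared with SC at 10 dpf, 6 of the 10 genes rose: matn1 by 2.00 (SE 0.28, adjusted p = 1.02e-05), epyc by 1.44 (SE 0.18, adjusted p = 2.17e-06), ucmaa by 0.97, hapln1a by 0.86, ucmab by 0.71 and cnmd by 0.48. In that step 13.9% of all genes rose and 10.7% fell. The epyc arrays read 7.77, 7.49 and 8.16 in SC at 15 dpf and 6.88, 6.11 and 6.10 in SC at 10 dpf, which do not overlap. The ucmab and cnmd calls depended on single arrays: ucmab was lost without SC replicate 2 or 3 at 10 dpf or SC replicate 3 at 15 dpf (adjusted p 0.0748 to 0.129), and cnmd without SC replicate 3 at 10 dpf or SC replicate 2 or 3 at 15 dpf (adjusted p 0.0561 to 0.152). With only the compared arrays in the fit, the calls of hapln1a (adjusted p = 0.0852), ucmab (adjusted p = 0.115) and cnmd (adjusted p = 0.144) were lost. Matn4 passed (0.46, adjusted p = 0.0303) without SC replicate 1 at 10 dpf. In KD, where the mean visceral signal was 6.48 ± 0.43 at 15 dpf and 5.25 ± 0.15 at 10 dpf, the same step gave a rise of matn1 by 1.03 (SE 0.28, adjusted p = 0.0241), a rise of epyc by 0.69 (SE 0.18, adjusted p = 0.0184) and the fall of sox9b described above, beside 5.56% of all genes that rose and 1.42% that fell. The matn1 call in KD was lost when KD replicate 2 or 3 at either age was left out (adjusted p 0.0649 to 0.146), and the epyc call without KD replicate 1 or 3 at 10 dpf or KD replicate 2 or 3 at 15 dpf (adjusted p 0.0516 to 0.0985). With the visceral mean as a covariate none of these 3 passed. The difference was then 1.15 for matn1 (adjusted p = 0.228), 0.53 for epyc (adjusted p = 0.384) and -0.19 for sox9b (adjusted p = 0.697). Calls over all genes dropped from 1344 to 209 in that fit, so the lost calls do not measure the part of tissue content. Without KD replicate 1 at 10 dpf, ucmaa (0.68, adjusted p = 0.0309) and ucmab (0.76, adjusted p = 0.0473) passed.

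**Figure D2:**
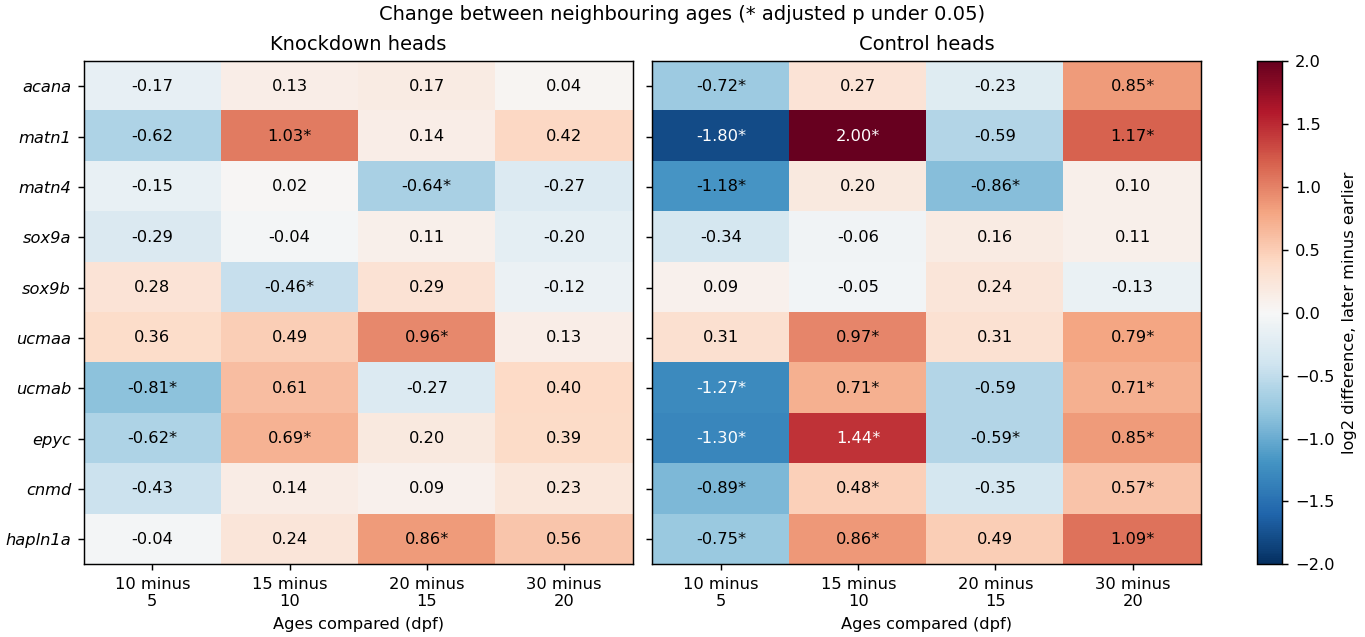
Difference between neighbouring ages for each gene (log2, later minus earlier; colour scale and printed values), in KD heads on the left and SC heads on the right. Asterisks mark adjusted p under 0.05 in limma; the SC panel shows 7 falls between 5 and 10 dpf, 6 rises between 10 and 15 dpf and 7 rises between 20 and 30 dpf, and the KD panel has 8 marked cells in all, none of them between 20 and 30 dpf.

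Between 15 and 20 dpf matn4 fell in both treatments. In KD ucmaa rose by 0.96 (SE 0.19, adjusted p = 0.000467) and hapln1a rose by 0.86 (SE 0.20, adjusted p = 0.00273), while matn4 fell by 0.64 (SE 0.17, adjusted p = 0.00645). These 3 calls held when any single array of the 2 groups was left out, and 13.2% of all genes rose and 12.2% fell. The liver, pancreas and intestine genes averaged 5.17 to 5.62 in KD at 20 dpf and 6.18 to 6.97 in KD at 15 dpf. With their mean as a covariate the differences were 0.76 for ucmaa (adjusted p = 0.0584), 0.69 for hapln1a (adjusted p = 0.116) and -0.62 for matn4 (adjusted p = 0.0959), none past the threshold. In that fit calls over all genes dropped from 4893 to 2682. In SC matn4 fell by 0.86 (SE 0.17, adjusted p = 0.00151) and epyc fell by 0.59 (SE 0.18, adjusted p = 0.0332), beside 8.34% of all genes that rose and 4.03% that fell. The SC epyc call was lost without any of 5 of the 6 arrays, all but SC replicate 2 at 15 dpf (adjusted p 0.0723 to 0.186). Without SC replicate 1 at 15 dpf, ucmab (-0.75, adjusted p = 0.0492) and cnmd (-0.51, adjusted p = 0.0486) passed. In the last step, compared with SC at 20 dpf, 7 genes rose in SC at 30 dpf, with 22% of all genes higher and 9.48% lower. They were matn1 (1.17, adjusted p = 0.00237), hapln1a (1.09, adjusted p = 0.000176), acana and epyc (0.85 each), ucmaa (0.79), ucmab (0.71) and cnmd (0.57). The ucmab rise was lost without SC replicate 2 at 20 dpf (0.53, adjusted p = 0.102) or SC replicate 3 at 30 dpf (0.62, adjusted p = 0.0656). In KD none of the 10 passed in this step, with 2 at an unadjusted p under 0.05, the largest being hapln1a (0.56, SE 0.20, adjusted p = 0.0745). Of all genes, 7.18% rose and 4.41% fell in KD in this step, 2232 in all, against 1148 without KD replicate 3 at 20 dpf. Whether the last step differed between treatments is given by the change of the KD minus SC difference, below, for which no gene of the 10 passed.

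Set side by side at each age, knockdown and control heads differed in 1 of 50 comparisons, 10 genes at 5 ages. At 20 dpf matn4 rose in KD. Its arrays read 8.09, 8.12 and 8.12 in KD, against 7.53, 7.55 and 7.47 in SC. Each treatment was tight and all KD arrays lay more than 0.5 above all SC arrays. The difference was 0.59 (SE 0.17, 95% interval 0.24 to 0.94, adjusted p = 0.018), or 1.51-fold. At 20 dpf 14.5% of all genes passed, so 1 of 10 is no more than the background. The call was lost without SC replicate 3 (0.57, adjusted p = 0.0621) or KD replicate 2 (0.59, adjusted p = 0.052). Liver, pancreas and intestine genes averaged 5.17 to 5.62 in KD and 5.12 to 5.16 in SC at 20 dpf. With that mean as a covariate the matn4 difference was still 0.59 (adjusted p = 0.0309). The slope of that covariate rests only on the spread within groups, and the fit hardly moved the difference. The kept call therefore says nothing about the part of tissue content, which was not tested.

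Others of the 10 genes leaned the same way at 20 dpf without passing in the main test. In 8 of the 10, all but sox9a and sox9b, every KD array was above every SC array, beside 20.7% of all genes in that position and 16.8% in the opposite one. For hapln1a they read 9.53, 9.47 and 9.45 in KD and 9.22, 8.92 and 9.11 in SC. For ucmaa they read 7.84, 7.68 and 7.75 in KD and 7.47, 6.97 and 7.33 in SC. In both genes the SC replicate 2 array was the lowest. Their differences were 0.40 (SE 0.20, adjusted p = 0.206) and 0.50 (SE 0.19, adjusted p = 0.0746). The other 5, acana, matn1, ucmab, epyc and cnmd, had differences of 0.31 to 0.54 with adjusted p from 0.179 to 0.257. With only the arrays at 20 dpf in the fit, ucmaa (adjusted p = 0.0392), epyc (adjusted p = 0.0341) and hapln1a (adjusted p = 0.0396) passed. The ucmaa difference also passed without dim genes (adjusted p = 0.0467) and with array quality weights (0.46, adjusted p = 0.0166). The median over the 10 genes was 0.38, against -0.01 over all genes. List means of other cartilage genes mostly overlapped at 20 dpf. They were 7.59 to 7.63 in KD and 7.47 to 7.62 in SC for 11 collagens. For 29 other matrix genes they were 6.97 to 7.08 and 6.91 to 7.02, and for 36 chondrocyte regulators 6.77 to 6.89 and 6.81 to 6.90. The mean of 33 glycosaminoglycan synthesis genes did not overlap, at 6.94 to 7.04 in KD and 6.73 to 6.83 in SC. Of 14 inner ear genes 2 rose in KD at 20 dpf, a share like the 14.5% of all genes called: stm (1.04, adjusted p = 0.0138) and coch (0.56, adjusted p = 0.0306), with a list mean of 7.25 to 7.48 in KD and 7.04 to 7.23 in SC. Of 11 osteoblast and bone genes 2 rose, ifitm5 (0.80) and spp1 (0.96), and 2 fell, col1a1b (-0.57) and col1a1a (-0.57), with a list mean of 9.28 to 9.33 in KD and 9.12 to 9.33 in SC. After a second quantile normalization 6 of the 8 still did not overlap, with acana and matn1 no longer among them. The counts of arrays that do not overlap were added after the data had been seen, and the genes share the same 6 arrays.

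**Figure D3:**
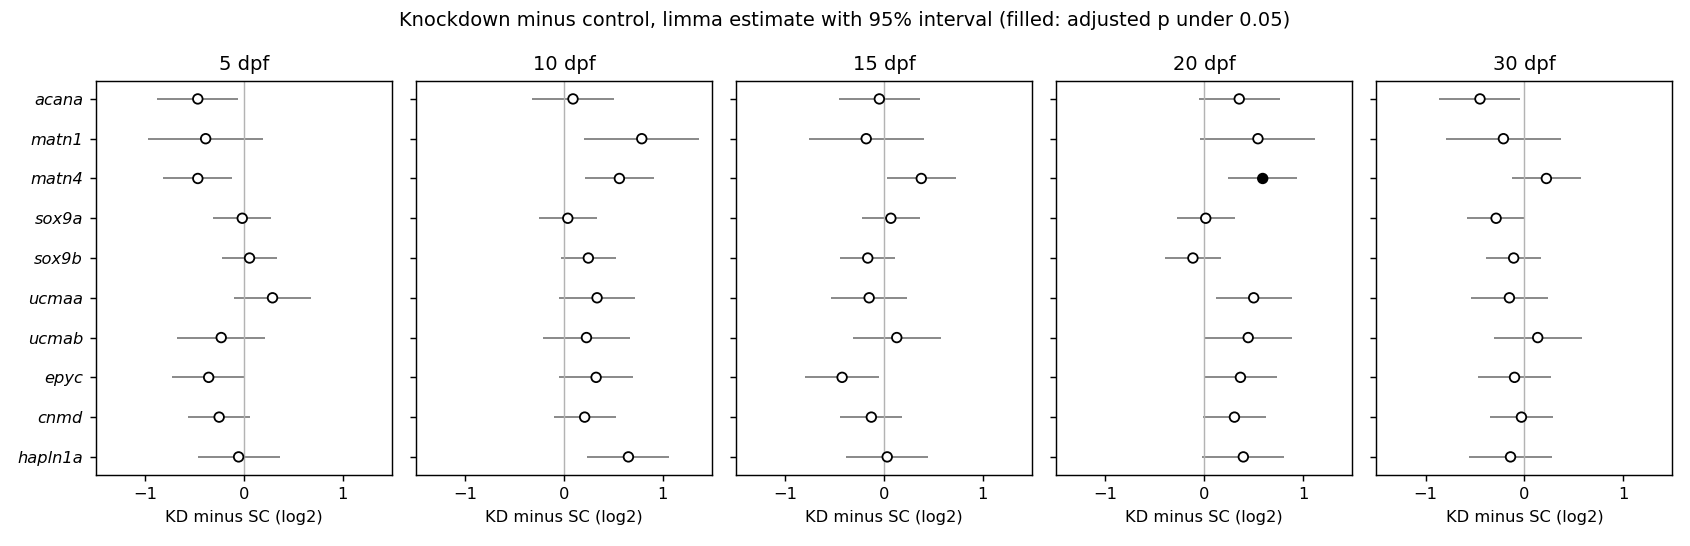
KD minus SC difference (log2) of each gene at 5, 10, 15, 20 and 30 dpf, as the limma estimate with its 95% interval. The filled point is the single adjusted p under 0.05, matn4 at 20 dpf; points lie to the left at 5 dpf for 8 genes, to the right at 10 dpf for 10 and at 20 dpf for 9, and to the left at 30 dpf for 8.

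At 5 dpf no gene of the 10 passed in limma, with 2 at an unadjusted p under 0.05 and 12% of all genes past the threshold. Differences were negative for 8, with a median of -0.24 against 0.02 over all genes. The matn4 arrays read 9.18, 8.59 and 8.89 in KD, against 9.24, 9.48 and 9.33 in SC. KD replicate 1 came close to the controls, the other 2 did not, and the difference was -0.47 (SE 0.17, adjusted p = 0.0735). Without that array it was -0.61 (adjusted p = 0.0281). All KD arrays lay below all SC arrays for acana, matn1, matn4 and ucmab, beside 13.6% of all genes below and 15% above. After a second quantile normalization hapln1a took the place of matn4 among them. These are the arrays in which liver, pancreas and intestine genes were lower in KD in 40 of 42 cases, and the part of tissue content in the 5 dpf differences was not tested.

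All of the 10 genes except sox9b and cnmd had their widest spread between replicates (SD) in a group at 10 dpf. At this age no gene of the 10 passed in limma, 3 had an unadjusted p under 0.05, and 2.67% of all genes passed. All 10 differences were positive, with a median of 0.29 against 0.04 over all genes. The matn1 arrays read 10.14, 9.67 and 9.14 in KD and 9.89, 8.18 and 8.52 in SC. SC replicate 1 therefore lay inside the KD range, with 2 SC arrays below it, and the difference was 0.79 (SE 0.28, adjusted p = 0.141). The hapln1a arrays read 8.64, 8.51 and 8.00 in KD and 8.29, 7.12 and 7.78 in SC, with the same overlap and a difference of 0.65 (SE 0.20, adjusted p = 0.0814). For matn4 the arrays read 8.84, 8.69 and 8.67 in KD and 8.69, 7.60 and 8.23 in SC, a difference of 0.56 (SE 0.17, adjusted p = 0.0736). Averaged over the 10 genes, the arrays read 7.89, 7.80 and 7.41 in KD, and 7.74, 7.14 and 7.18 in SC. The 11 cartilage collagen genes moved alike in these arrays, with means of 7.17 and 7.06 in KD replicates 1 and 2, against 6.38 and 6.73 in SC replicates 2 and 3; KD replicate 3 and SC replicate 1 lay between them. Of 11 osteoblast and bone genes 5 rose in KD at 10 dpf, among them phex (0.64), col1a1b (0.65), col1a1a (0.83) and sparc (0.52), and their mean was 7.75 to 8.21 in KD and 7.39 to 7.78 in SC. Their part in the cartilage values was not tested.

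Leaving out SC replicate 1 at 10 dpf brought 4 genes past the threshold: matn1 (adjusted p = 0.00174), matn4 (0.82, adjusted p = 0.00285), hapln1a (0.93, adjusted p = 0.00628) and epyc (0.58, adjusted p = 0.0449). Leaving out KD replicate 3 brought 3: matn1 (1.04, adjusted p = 0.0406), hapln1a (0.84, adjusted p = 0.0206) and ucmaa (0.63, adjusted p = 0.0284). The KD minus SC result at 10 dpf thus turned on single arrays, and no label gives a reason to drop either. The only gene whose KD and SC arrays did not overlap at 10 dpf was sox9b, with 7.53, 7.67 and 7.41 in KD and 7.23, 7.32 and 7.31 in SC, a difference of 0.25 (SE 0.14, adjusted p = 0.374). All KD arrays were above all SC arrays in 8.5% of all genes at this age and below in 5.79%.

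**Figure D4:**
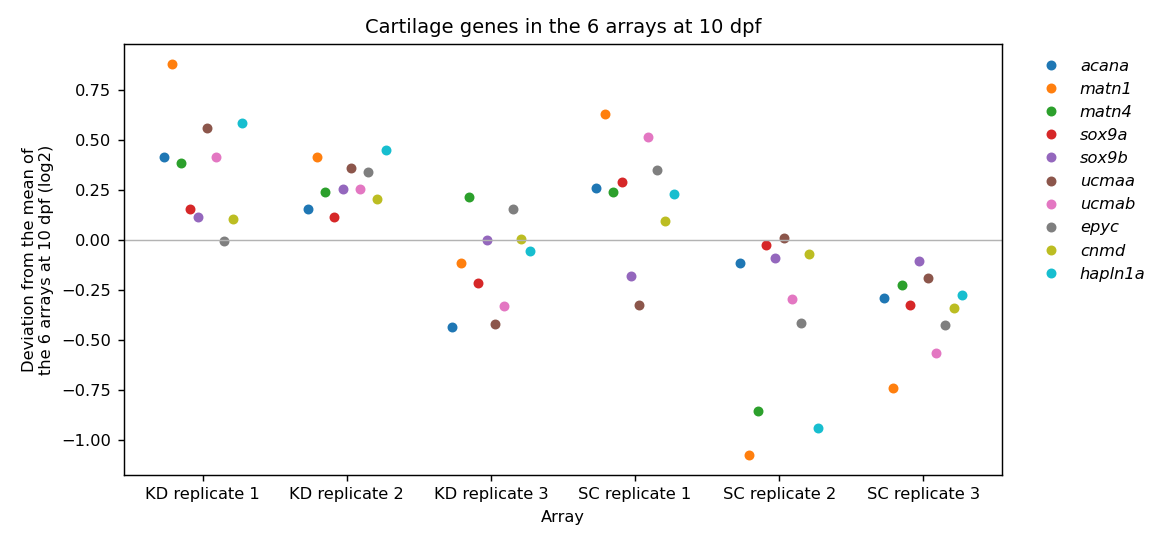
Signal of each gene in the 6 arrays at 10 dpf, as its deviation from the mean of those arrays (log2). KD replicate 2 has all 10 genes above 0 and SC replicate 3 all 10 below, while SC replicate 1 has 8 above and KD replicate 3 has 6 below.

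At 15 dpf 0 of the 10 passed in limma, with 2 at an unadjusted p under 0.05, while 12% of all genes passed. The matn4 arrays read 8.64, 8.87 and 8.74 in KD and 8.35, 8.25 and 8.52 in SC. All KD arrays were higher, by a difference of means of 0.38 (SE 0.17, adjusted p = 0.15), and in 21.3% of all genes the KD arrays were likewise above and in 8.45% below. The epyc difference was -0.42 (SE 0.18, adjusted p = 0.128) with overlapping arrays, and without SC replicate 2 it was -0.58 (adjusted p = 0.0458). At 30 dpf 0 of the 10 passed and 1% of all genes did. The widest difference was that of acana, -0.45 (SE 0.20, adjusted p = 0.378), the only one with an unadjusted p under 0.05. All KD arrays lay above all SC arrays for matn4 (7.72, 7.95 and 7.86 in KD, 7.66, 7.58 and 7.62 in SC) and below them for sox9a (8.31, 8.53 and 8.31 in KD, 8.63, 8.61 and 8.76 in SC). The shares of all genes in those positions were 6.91% above and 14.4% below. The matn4 arrays at 30 dpf overlapped after median centring.

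The KD minus SC difference depended on age for 2 of the 10 genes, matn4 and epyc, by limma's moderated F test over the 5 ages, and for 31.7% of all genes. For matn4 F was 6.48 (adjusted p = 0.0064), with differences of -0.47, 0.56, 0.38, 0.59 and 0.22 at 5, 10, 15, 20 and 30 dpf. Its sign was thus negative at 5 dpf and positive at each later age, but the 5 dpf difference did not itself pass (adjusted p = 0.0735). With the mean visceral signal as a covariate the matn4 F was 1.34 (adjusted p = 0.438). In that fit 3696 genes still passed the F test, against 6105 without the covariate. Between neighbouring ages, matn4 changed from 5 to 10 dpf by 1.03 (SE 0.24, adjusted p = 0.00579), where 10% of all genes changed. That contrast uses the SC arrays at 5 dpf. With only the 12 compared arrays in the fit it was 1.03 (adjusted p = 0.0832). With the mean visceral signal as a covariate it was 0.94 (adjusted p = 0.825). That signal nearly separates the SC arrays at 5 dpf from all others, and with it 1 of 19260 genes passed this contrast. For this change from 5 to 10 dpf, the call lost with the covariate is therefore no result about matn4 itself. Over this step the change was positive for all 10 genes, with 5 at an unadjusted p under 0.05. Its median was 0.51, against 0.04 over all genes, and matn1 had the largest (1.17, adjusted p = 0.0614). Without SC replicate 1 at 10 dpf, matn1 (adjusted p = 0.000517), epyc (0.94, adjusted p = 0.00798) and hapln1a (0.98, adjusted p = 0.0136) passed as well. Without KD replicate 3 at 10 dpf, acana, matn1 and hapln1a did (adjusted p 0.0197 to 0.0493).

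For epyc F was 4.19 (adjusted p = 0.0343), with differences of -0.36, 0.33, -0.42, 0.37 and -0.10, which alternate in sign along the 5 ages. From 15 to 20 dpf the difference of epyc changed by 0.79 (SE 0.26, adjusted p = 0.0286), where 20.8% of all genes changed. It was 0.62 without SC replicate 3 (adjusted p = 0.102) or KD replicate 1 (adjusted p = 0.107) at 15 dpf, 0.76 without SC replicate 2 (adjusted p = 0.0581) or KD replicate 2 (adjusted p = 0.0622) at 20 dpf, and 0.69 after median centring (adjusted p = 0.052). The F of epyc likewise lost its call, at 3.44 (adjusted p = 0.0583), after median centring and, at 3.61 to 3.86 (adjusted p 0.0501 to 0.0613), without any of 11 arrays. With the visceral mean as a covariate it was 3.52 (adjusted p = 0.0831). From 10 to 15 dpf no gene of the 10 changed, with 4 at an unadjusted p under 0.05, beside 11.1% of all genes. The largest was matn1 (-0.97, SE 0.40, adjusted p = 0.124), which without SC replicate 1 at 10 dpf was -1.48 (adjusted p = 0.00329). The smallest p was that of epyc (-0.75, adjusted p = 0.0587). It passed with an intensity trend and robust spread (adjusted p = 0.0391), without dim genes (0.0339) and with array quality weights (0.0296). It also passed without SC replicate 1 or KD replicate 1 at 10 dpf, or SC replicate 2 or KD replicate 3 at 15 dpf (adjusted p 0.00659 to 0.0489). From 20 to 30 dpf none passed, with 2 at an unadjusted p under 0.05, beside 7.56% of all genes. The 2 were acana (-0.80, SE 0.28, adjusted p = 0.0833) and ucmaa (-0.65, SE 0.27, adjusted p = 0.148). Changes over neighbouring steps share the arrays of the age between them, so alternating signs of such changes in 1 gene are not independent. The differences at single ages rest on separate arrays but share 1 estimate of the spread.

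The glycosaminoglycan list was drawn up from enzymes and transporters for sulphated sugar chains such as those of aggrecan. It also names genes for heparan sulphate and hyaluronan. Its counts were near or under the share of all genes called at 5, 10, 15 and 30 dpf. At 20 dpf 7 of 33 rose in KD and none fell, with a median of 0.23, beside 14.5% of all genes called. They included ugdh, which makes UDP-glucuronic acid (0.87, adjusted p = 0.000383), papss2b, which makes the sulphate donor (0.80, adjusted p = 0.00124), the nucleotide sugar transporter slc35d1a (0.53, adjusted p = 0.000502) and the linker enzyme b4galt7 (0.50, adjusted p = 0.0177). At 5 dpf, where 12% of all genes passed, 1 rose and 3 fell: xylt1 (0.34), against papss2a (-1.20), ugdh (-1.11) and slc35d1a (-0.44). At 10 dpf b3galt6 rose (0.53, adjusted p = 0.0345) beside 2.67% of all genes called, at 15 dpf slc35d1a (-0.38) and b4galt7 (-0.52) fell beside 12%, and at 30 dpf 0 of 33 passed in limma beside 1%.

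The counts for the other cartilage lists in KD against SC were small, and most lay at or under the shares of all genes called, which were 12%, 2.67%, 12%, 14.5% and 1% at 5, 10, 15, 20 and 30 dpf. Of 29 other matrix genes, prg4b (-1.63, adjusted p = 0.000141) and otos (-0.52, adjusted p = 0.0281) fell at 5 dpf. At 10 dpf lum (0.58), fibina (0.74) and cilp2 (0.60) rose, at 15 dpf itgbl1 rose (0.37), at 20 dpf fmoda rose (0.38), and at 30 dpf none passed. Of the 11 cartilage collagen genes, col10a1a (-0.90, adjusted p = 0.00454) and col9a3 (-0.61, adjusted p = 0.023) fell at 15 dpf and no collagen passed at the other 4 ages. Of 36 chondrocyte regulators, foxf1 fell (-0.62) and sox5 rose (0.44) at 5 dpf, sox8b fell (-0.57) while ccn2b, gli1 and bmpr1ba rose (0.49 to 0.58) at 15 dpf, and none passed at 10, 20 or 30 dpf. In control heads between 20 and 30 dpf, the step in which 7 of the 10 genes rose, so did 20 of the 29 other matrix genes, 16 of the 33 glycosaminoglycan genes and 7 of the 11 collagens. Of all genes 22% rose in that step. In knockdown heads the counts were 11, 3 and 1, beside 7.18% of all genes. The change of the KD minus SC difference over that step passed, as a fall, for 1 of the 29, 2 of the 33 and 0 of the 11. In control heads between 5 and 10 dpf, 8 of the 29 matrix genes, 4 of the 33 glycosaminoglycan genes and 5 of the 11 collagens fell, beside 14.7% of all genes. This step uses the SC arrays at 5 dpf with their high liver, pancreas and intestine signals, whose part was not tested.

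Genes whose course over the 10 groups was nearest to that of each of the 10 were found by the root mean square difference of their group means, each centred on its own mean. The gene nearest to matn1 was acanb, the paralog of acana, at 0.28, followed by tgfbi and desma. The acanb group means spanned 2.21, against 0.88 for acana. For hapln1a the nearest were mybpha (0.12) and mmp2 (0.13), and for ucmaa arpc1b and lmna (0.16 each), with the bone gene ifitm5 last of the nearest 5. For epyc the list was lmo4a (0.20), then scn4ba, itih6 and ap1m3 (0.21 each), with mia last. For acana it began with crabp1b (0.09) and ccn6 (0.11). The nearest to matn4 was dnajc22 (0.25), to ucmab myl4 (0.14) and to cnmd slc47a4 (0.10). The nearest to sox9a was yap1 (0.06) and to sox9b zfr2 (0.07). For the mean of the 10 genes the nearest were socs7 (0.07) and galnt6 (0.07), with sulf1, an enzyme that trims heparan sulphate, among the first 5. By the mean absolute difference instead, ifitm5, itih6, mia, sulf1 and dnajc22 were not among the nearest 5 in their lists. Among the 10 genes themselves, acana and cnmd were closest (0.14) and matn4 and ucmaa farthest apart (1.32). Each of these distances rests on 10 group means from the same 30 arrays and is given as a description.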

How the data were processed

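RNA of the head in front of the gills was hybridised to 30 arrays, with 3 pools of 5 fish in each of 10 groups. The authors deposited a log2 signal for each probe set, and the submitters' processing notes name RMA as its source, with no version or settings in the sources used here. They were used without further normalization. Probe sets with 1 gene symbol in the array annotation were kept, with the brightest per symbol, which left 19260 genes; current names for 20323 probe sets came from RefSeq by Entrez identifier. The test was that of limma 3.58.1 (R 4.3.3), with 1 mean per group over all 30 arrays, 20 residual and 6.05 prior degrees of freedom, two-sided, with Benjamini-Hochberg adjustment over all genes of a contrast and a threshold of 0.05. It was tested on simulated data. The 10 genes and the lists beside them were chosen with earlier results of these data known. Named genes are the 10 members, of each list at most the 4 with the smallest p in a contrast, and the 5 genes nearest in course. The visceral score is the mean of 42 liver, pancreas and intestine genes. Replicate numbers were not taken as pairs, since they are only names in the labels. Same-numbered KD and SC arrays deviated together with correlations of -0.12 to 0.28, over 0.1 in 4 of 15 pairs. All 4 were at 10 dpf (0.28 for replicate 1, 0.18 for replicate 3) or 20 dpf (0.18 for replicate 1, 0.12 for replicate 2). Alternatives were 9 other settings and each array left out. The number of arrays limits the precision. Plots used matplotlib 3.10.9 (Python 3.11.15).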

Additional observations from a re-analysis of the deposited data

Results flagged for a closer look

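The tests of whether a treatment difference depends on age passed for 2 of the 10 genes. Of all genes 31.7% passed the F test, 10% the change from 5 to 10 dpf and 20.8% that from 15 to 20 dpf. The counts among the 10 genes are no more than that background. For matn4 the KD minus SC difference was 1.03 higher at 10 dpf than at 5 dpf (adjusted p = 0.00579), and the F statistic over all 5 ages was 6.48 (adjusted p = 0.0064). For epyc the difference was 0.79 higher at 20 dpf than at 15 dpf (adjusted p = 0.0286), and F was 4.19 (adjusted p = 0.0343).
The matn4 change kept its call without any single array (0.74 to 1.29). It lost the call with only the compared arrays in the fit (adjusted p = 0.0832) and with the visceral mean as a covariate (0.94, adjusted p = 0.825). With that covariate 1 of 19260 genes passed this contrast, so the loss is no result about matn4 itself. The matn4 F, which also uses the SC arrays at 5 dpf, was 1.34 with that covariate (adjusted p = 0.438). In that F test 3696 genes still passed with the covariate, against 6105 without it. The epyc F was 3.52 with the covariate (adjusted p = 0.0831), and both epyc values lost their calls after median centring and without single arrays, as given above.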

How the results depend on the processing

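Over 9 other settings and 30 fits that each left out 1 array, 3470 values of the 10 genes were computed again: 3286 kept their side of the threshold, 96 lost a call, 88 gained one, and no called value changed sign, though 111 uncalled ones did. The values kept include 200 with the mean of all probe sets, which shows nothing about stability because each of the 10 genes has 1 probe set. The fit with the replicate block changed none of 200 calls, with matn4 at 20 dpf at 0.59 (adjusted p = 0.0192). That block assumes the same shift of a replicate number at every age, so it does not test pairs within an age.
Counts of the 10 genes past the threshold moved as follows, and the cause was not tested. With array quality weights they were 1 at 5 dpf, 1 at 10 dpf and 2 at 20 dpf for KD against SC, 4, 1, 2 and 2 for the change of that difference over the 4 steps in order of age, 7 for its variation with age, and, in KD, 1 between 5 and 10 dpf and 1 between 20 and 30 dpf. Calls over all genes were also more numerous in that fit for variation with age, 7768 against 6105 in the main fit. The same held at 5 dpf (2817 against 2308) and at 20 dpf (4787 against 2786). For most other counts listed here, calls over all genes in the same fit are not given. Those counts are therefore not set against a background. With an intensity trend and robust spread the counts of the 10 genes were 1 at 5 dpf, 1 at 10 dpf and 1 for the change from 10 to 15 dpf. Without dim genes they were 2 at 10 dpf, 2 at 20 dpf, 2 for the change from 5 to 10 dpf, 1 for that from 10 to 15 dpf, 4 for variation with age and 3 in SC between 15 and 20 dpf. With only the compared arrays they were 4 at 20 dpf, 0 and 4 for the changes from 5 to 10 and from 20 to 30 dpf, 0, 0 and 2 in KD for the steps from 5 to 10, 10 to 15 and 20 to 30 dpf, and 3 and 1 in SC for the steps from 10 to 15 and 15 to 20 dpf. With the visceral covariate they were 0 for the change from 5 to 10 dpf and for variation with age, 0 in SC between 5 and 10 dpf and between 5 and 30 dpf, 1 in SC between 15 and 20 dpf, and 1, 0 and 0 in KD for the first 3 steps. That covariate nearly separates the SC arrays at 5 dpf by itself, so lost calls in differences that use those arrays say nothing about the genes. The F test of variation with age also uses those arrays, and in it 3696 genes still passed with the covariate, against 6105 without it. The calls of matn4 and epyc in that F test thus depend on the setting. The part of tissue content in those 2 results was not tested. Median centring gave 0 for the change from 15 to 20 dpf, 1 for variation with age and 1 in SC between 15 and 20 dpf; genes with all KD arrays lower numbered 1 at 20 dpf, and with all higher 0 at 30 dpf. A second quantile normalization gave 1 in KD between 20 and 30 dpf, 2 genes with all KD arrays higher at 10 dpf and 2 with all lower at 30 dpf. Leaving out 1 array at a time gave, for KD against SC, 0 to 4 at 10 dpf, 0 to 1 at each of 5, 15 and 20 dpf, and 0 at 30 dpf. For the change of that difference it gave 1 to 4, 0 to 3, 0 to 1 and 0 to 1 over the 4 steps, and 1 to 6 for variation with age. In SC the steps gave 6 to 8, 4 to 7, 1 to 3 and 6 to 7, and in KD 0 to 2, 0 to 3, 3 and 0. Between 5 and 30 dpf SC gave 3 to 5 and KD 5 to 6. Calls over all genes, 2308 at 5 dpf as reported, ranged between 1 (visceral covariate) and 2817. At 10 dpf there were 515, with a range of 0 (only the compared arrays) to 1096. At 15 dpf there were 2316 (694 to 2890), at 20 dpf 2786 (1742 to 4787), and at 30 dpf 193 (103 to 493). For the change of the difference there were 1931 from 5 to 10 dpf (1 to 2548), 2134 from 10 to 15 dpf (576 to 2392) and 1457 from 20 to 30 dpf (886, without SC replicate 2 at 20 dpf, to 2693), and 6105 for variation with age (3696 to 7768). In SC there were 5483 (1 to 5690), 4731 (1848 to 4891) and 2384 (996 to 3015) over the first 3 steps and 9820 between 5 and 30 dpf (325 to 11081). In KD there were 1590 (333 to 1826), 1344 (209 to 2160), 4893 (2682 to 6434) and 2232 (1148 to 3102) over the 4 steps. Low signal limits acana and ucmaa, whose lowest groups lie under the limit of dim genes.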
